A study of Mus musculus with 9 samples.

Results

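The 37 genes described here carry fatty acids into heart muscle cells, burn them in mitochondria or keep them as triglyceride. They were taken by symbol, and all 37 were found among the 24391 genes of the deposited table. RNA of mouse cardiac ventricles (strain C57BL/6) was sequenced in 3 groups of 3 libraries each. The stabilized beta-catenin group were adults of 15 weeks that carry the alphaMHC Cre recombinase, which acts in heart muscle cells, and in which beta-catenin exon 3 was deleted, a change that keeps beta-catenin from being degraded. The P6 group were wild-type pups at postnatal day 6, with no Cre stated. The adult control group were also 15 weeks old and Cre positive, with wild-type beta-catenin, and the titles of both adult groups mark them as re-analysed. P6 therefore differs from the adults in age, in Cre and in the set of libraries at once, which cannot be told apart, and no label says whether the libraries of a group came from separate animals, so each p-value measures the spread between libraries.

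Fatty acids reach the heart as circulating triglyceride and as free acids. Lipoprotein lipase frees them, CD36 and binding proteins take them up, acyl-CoA synthetases activate them, and the carnitine shuttle passes them into mitochondria at a step that malonyl-CoA inhibits. There beta-oxidation cuts them into acetyl-CoA and hands electrons to the respiratory chain. The heart of a newborn mouse turns from glucose and lactate to fatty acids as its main fuel, and the adult heart relies on them.

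At P6 most of these genes were below adult control. Of the 37, 26 were lower and 5 higher, where 31.3% of all 13398 genes tested were called lower and 31.2% higher (limma on log2 normalized counts, Benjamini-Hochberg adjusted p under 0.05). With total-count scaling 19 were lower and 8 higher, where 2316 of all 13398 genes tested were called lower and 6388 higher. With quantile normalization 20 were lower and 6 higher, and the counts over all genes tested under it are not reported here. Of the 26 lower genes 18 were lower under both scalings too, and all 5 higher genes were higher under both. Crat, Acacb, Mlycd, Hadha and Acaa2 lost their call under either one, Cpt1b and Acad9 under total-count scaling, and Acsl1 under quantile normalization. Under quantile normalization the fold of 11 called genes moved by over 1.5 times (Lpl, Cd36, Acsl1, Crat, Acacb, Acadm, Acadvl, Hadh, Hadha, Acaa2 and Etfdh). The median log2 fold change of the 37 was -0.92, beside 0.02 over all genes tested. The lower genes included the 3 of electron transfer and all 6 of the later steps of beta-oxidation, and the largest differences were in Dgat2 (-3.06), which makes triglyceride, and Lpl (-2.84), the lipoprotein lipase gene. The 5 higher genes were Cpt1a and Cpt1c, forms of the shuttle's entry enzyme, the thioesterase genes Acot1 and Acot2, and Ucp2, which encodes a mitochondrial carrier. The other 6 (Fabp3, Fabp4, Acadl, Ucp3, Lipe and Dgat1) did not pass the test, although Ucp3, Lipe and Dgat1 were called higher with total-count scaling and Fabp4 with quantile normalization.

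With stabilized beta-catenin, 1 of the 37 genes passed the test against adult control: Lipe, the hormone-sensitive lipase gene, was lower. None was higher. An unadjusted p under 0.05 was found for 10 of the 37, beside 1666 of all 12971 genes tested. On the whole reads edgeR called 0 of the 37 higher and 1 lower, and DESeq2 0 and 3. DESeq2 called 363 higher and 201 lower over all 12971 genes tested. Limma called 0.308% of these lower and 1.49% higher. The fold changes were mostly small and negative, in 32 of 37 genes beside 6504 of all 12971, with a median of -0.28 beside -0.00. The 95% interval of the log2 fold change lay within 1 of 0 for 29 of the 37 genes, and changes of more than 2-fold lie inside the interval of the other 8 (Lpl, Cpt1c, Acaa2, Acot1, Acot2, Ucp3, Lipe and Plin5).

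Against P6, the stabilized beta-catenin libraries had 25 of the 37 genes higher and 7 lower, where 36.5% of all 13367 genes tested were called higher and 35.8% lower. With total-count scaling 18 were higher and 10 lower. That scaling also moved the median over all genes tested down, and their counts under it are not reported here. With quantile normalization 17 were higher and 14 lower, where 5008 of all 13367 genes tested were called higher and 4667 lower. Of the 25 higher genes 15 were higher under both scalings too, and all 7 lower genes were lower under both. Cpt1b and Decr1 lost their call under total-count scaling, Cd36, Acsl1 and Acadvl under quantile normalization, and Crat, Acacb, Acadl, Hadha and Plin5 under either one. The median log2 fold change was 0.66, beside 0.00 over all genes tested. The 7 lower genes were Cpt1a, Cpt1c, Acot1, Acot2, Ucp2, Ucp3 and Lipe. The comparisons share libraries, so their values are given side by side and their likeness was not tested.

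**Figure D1:**
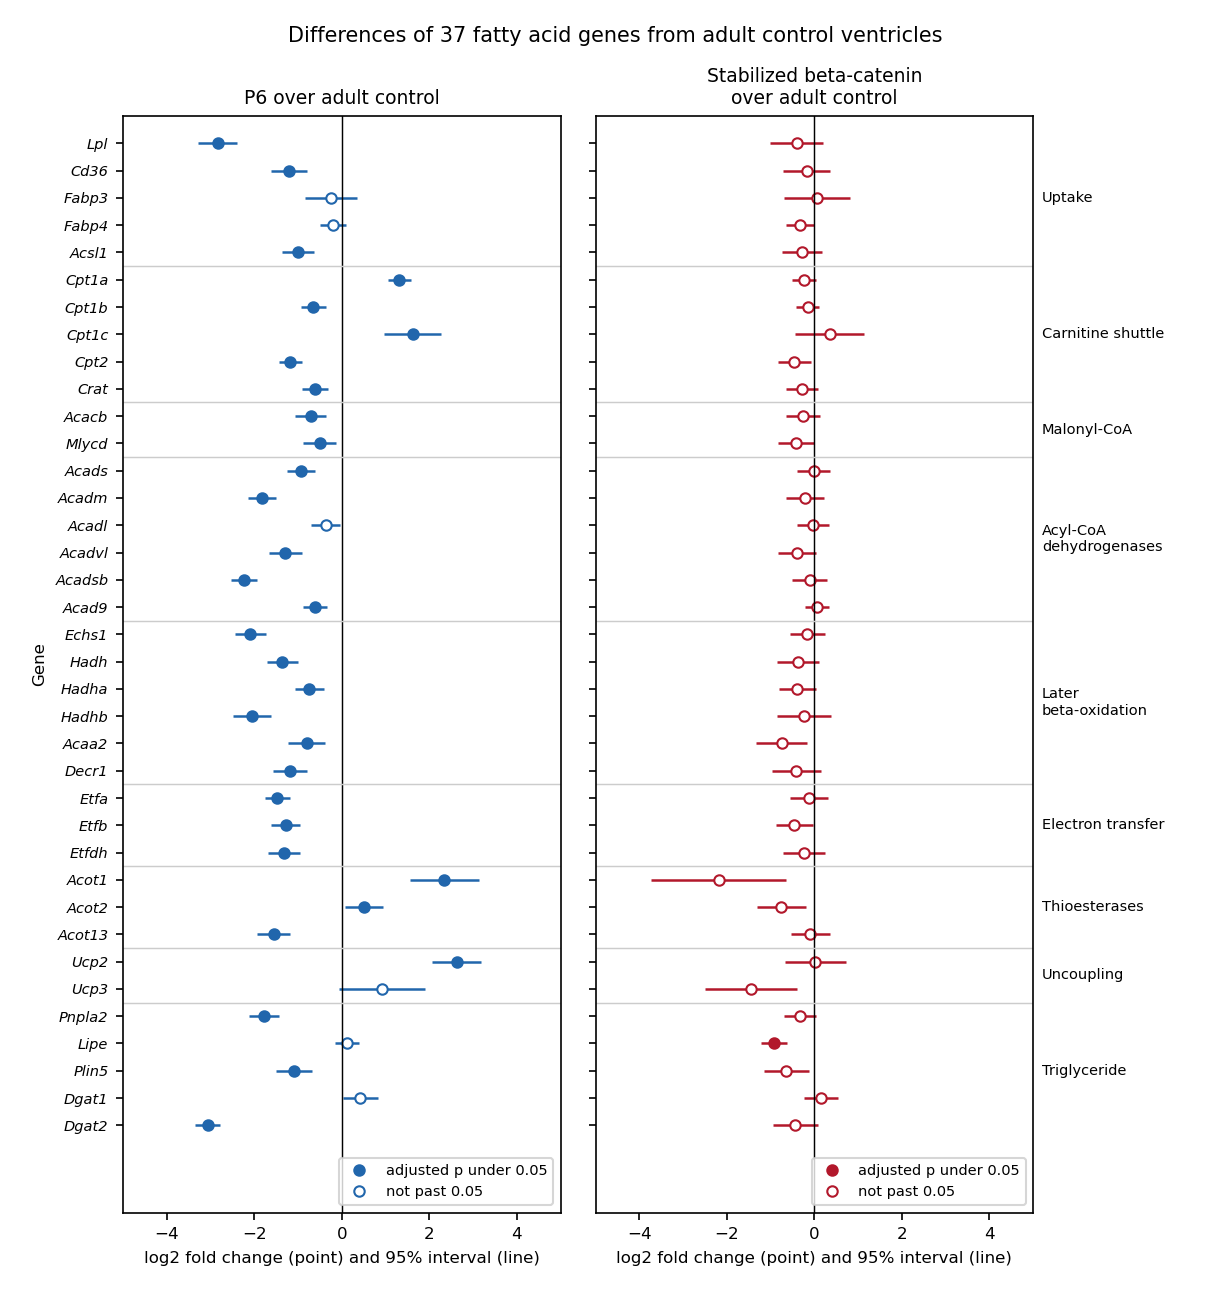
Log2 fold change of each of the 37 genes against adult control (x axis), with genes down the page in the order of their roles. Points are estimates, lines are 95% intervals and filled points passed the adjusted p of 0.05. At P6, on the left, 26 filled points lie left of 0 and 5 right of it, whereas with stabilized beta-catenin, on the right, the 1 filled point is Lipe at -0.92.

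Totals of assigned reads were 14965316 to 23236129 per library with stabilized beta-catenin, 7467551 to 7913057 at P6 and 15234366 to 21568022 in adult controls. The 37 genes together took 1.57% to 2.16%, 1.14% to 1.26% and 1.88% to 2.54% of the reads in these groups. Libraries differed in ways the labels do not give. Y-linked reads were present in stabilized beta-catenin libraries 1 and 3 and in P6 library 3, and in no adult control library above 3.33 summed normalized counts. Stabilized beta-catenin library 3 also had 546 normalized counts of Xist, the transcript of the inactive X chromosome. Of the 12 cardiomyocyte markers 9 were lower at P6 and 0 higher, at a median of -0.98 on the log2 scale, and their summed normalized counts were 2639790.0 to 2671690.0 with stabilized beta-catenin, 1517970.0 to 1564630.0 at P6 and 2216290.0 to 3086220.0 in adult controls. None of the 12 passed the test with stabilized beta-catenin against adult control. These are bulk samples, in which fewer cells of a type and less RNA per cell cannot be told apart, and the part of heart muscle content in the lower counts at P6 was not tested.

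RefSeq promoters (build GRCm38.p6) were found for 27 of the 37 genes, in 30 windows, and the 250 bases before each start were searched on both strands. The 6 shown were chosen after their values and matches were seen: Acadm and Echs1 for genes lower at P6, Cpt1a and Ucp3 for contrasts with their relatives, Acot1 as the gene with the lowest counts under stabilized beta-catenin, and Hadhb because it is divergent with Hadha. Capitals mark AGGTCA or its reverse complement TGACCT, a hexamer read by PPAR and other nuclear receptors, and ATCAAAG or its reverse complement CTTTGAT. The latter is 1 form of the sequence read by the TCF/LEF partners of beta-catenin. Each line runs 5′ to 3′ along the strand of its gene.
Acadm, chr3:153944644-153944893, minus strand: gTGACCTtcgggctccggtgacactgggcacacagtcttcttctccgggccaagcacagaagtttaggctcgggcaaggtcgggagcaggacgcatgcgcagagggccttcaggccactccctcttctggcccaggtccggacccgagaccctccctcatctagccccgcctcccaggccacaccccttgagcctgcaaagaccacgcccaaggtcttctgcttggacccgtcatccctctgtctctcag
Echs1, chr7:140116422-140116671, minus strand: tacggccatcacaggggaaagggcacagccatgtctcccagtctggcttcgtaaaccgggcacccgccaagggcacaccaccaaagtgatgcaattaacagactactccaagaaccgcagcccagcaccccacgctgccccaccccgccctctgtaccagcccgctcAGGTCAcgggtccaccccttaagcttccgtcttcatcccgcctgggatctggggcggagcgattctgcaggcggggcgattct
Cpt1a, chr19:3323051-3323300, plus strand: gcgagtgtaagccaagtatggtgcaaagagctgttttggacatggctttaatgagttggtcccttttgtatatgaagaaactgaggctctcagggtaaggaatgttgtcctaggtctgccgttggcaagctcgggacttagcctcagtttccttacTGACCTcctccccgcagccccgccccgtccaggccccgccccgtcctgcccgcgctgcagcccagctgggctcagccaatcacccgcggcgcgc
Ucp3, chr7:100472741-100472990, plus strand: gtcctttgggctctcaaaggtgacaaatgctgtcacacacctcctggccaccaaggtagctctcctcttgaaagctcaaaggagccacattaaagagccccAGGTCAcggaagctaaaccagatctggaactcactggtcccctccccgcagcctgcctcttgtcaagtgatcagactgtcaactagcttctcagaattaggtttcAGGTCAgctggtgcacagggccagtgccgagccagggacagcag
Acot1, chr12:84009252-84009501, plus strand: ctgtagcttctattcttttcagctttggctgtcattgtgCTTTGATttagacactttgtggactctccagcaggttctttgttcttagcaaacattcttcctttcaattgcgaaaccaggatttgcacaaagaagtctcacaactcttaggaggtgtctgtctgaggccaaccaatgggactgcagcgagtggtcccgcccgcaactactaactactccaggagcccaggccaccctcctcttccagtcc
Hadhb, chr5:30155003-30155252, plus strand: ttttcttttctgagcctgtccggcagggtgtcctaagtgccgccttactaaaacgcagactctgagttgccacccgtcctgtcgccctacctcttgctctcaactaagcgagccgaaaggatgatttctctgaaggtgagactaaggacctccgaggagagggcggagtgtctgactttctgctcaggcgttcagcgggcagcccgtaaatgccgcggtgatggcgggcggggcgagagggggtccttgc
The hexamer stood in 8 of the 30 windows (26.7%), those of Acadm, Acadvl, Cd36, Cpt1a, Cpt1c, Echs1, Plin5 and Ucp3, and in 14.0% of all 32851 windows of that length. Cpt1a and Cpt1c, higher at P6, held it as did Acadm and Echs1, lower at P6. This form of the TCF/LEF sequence, ATCAAAG, stood in 1 of the 30 windows, that of Acot1, and in 3.21% of all, and other forms were not counted. In all 10 patterns were searched, and these 2 were kept after the matches were seen. Over the whole 300-base entries the hexamer stood in 10 of 30 windows and in 16.3% of all. Of the others, GGGCGG stood in 18 of the 30 windows and in 32.7% of all, CCAAT in 43.3% and 33.8%, TATAAA in 3.33% and 12.4%, CACGTG in 3.33% and 6.02%, AAGGTCA in 3.33% and 4.08%, and GGGGCGGGG in 23.3% and 10.4%. The hexamer repeated after 1 base and TCAAGGTCA stood in 0 of the 30 windows, and in 0.0335% and 0.387% of all. A match is a stretch of letters and shows no binding.

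Among the uptake genes Lpl, Cd36 and Acsl1 were lower at P6 and the binding protein genes Fabp3 and Fabp4 were not called. Lpl had 94879.6, 62127 and 63219 normalized counts in the stabilized beta-catenin libraries, 13658, 14262 and 12215 at P6, and 83099, 88661 and 118125 in adult controls. All P6 libraries lay far below the adult ones, and the adult groups overlapped. Lpl was 7.15-fold lower at P6 than in adult controls (log2 fold change -2.84, SE 0.19, adjusted p = 6.59e-06), or 3.60-fold lower under quantile normalization, and did not pass the test with stabilized beta-catenin (log2 fold change -0.41, SE 0.26, adjusted p = 0.616). Cd36 had 32696, 23462 and 20971 normalized counts in the stabilized beta-catenin libraries, 12209, 12417 and 12490.1 at P6, and 32485, 22607 and 31635 in adult controls. Cd36, the fatty acid translocase gene, was thus lower in every P6 library than in any adult one (log2 fold change -1.21, SE 0.18, adjusted p = 4.22e-04 against adult control, and -0.45 under quantile normalization), with values that overlapped between the adult groups (log2 fold change -0.18, SE 0.24, adjusted p = 0.859). Acsl1 had 17212, 13962 and 12057 normalized counts in the stabilized beta-catenin libraries, 8167, 8974 and 8805 at P6, and 20410.4, 14519 and 17587 in adult controls. Acsl1, which encodes the main acyl-CoA synthetase of heart, was 2.01-fold lower at P6 (SE 0.16 on the log2 scale, adjusted p = 6.69e-04) and higher with stabilized beta-catenin than at P6 (log2 fold change 0.72, adjusted p = 6.23e-04). Both Acsl1 calls were lost under quantile normalization, at log2 fold changes of -0.26 (limma adjusted p = 0.131) and 0.055 (adjusted p = 0.657). Fabp3, the heart form of the binding protein, averaged 9728 ± 2997 with stabilized beta-catenin, 7629.7 ± 345 at P6 and 9564 ± 4009 in adult controls (means of normalized counts with their SD, 3 libraries in each group, as for all means below). Fabp4, a form made by endothelial cells and fat cells, averaged 4516 ± 312, 4923 ± 429.8 and 5679 ± 503 in the same groups. All stabilized beta-catenin libraries lay below all adult control libraries for Fabp4, by little (log2 fold change -0.33, SE 0.14, adjusted p = 0.362). Of 14 endothelial markers 7 were higher and 3 lower at P6, and 1 was higher and 0 lower with stabilized beta-catenin against adult control. In the latter comparison 13 of the 14 had negative log2 fold changes, beside 6504 of all 12971 genes tested, and the median of the 14 was -0.25. The summed normalized counts of these markers were 24309.8 to 25222 with stabilized beta-catenin, 29889 to 35003 at P6 and 25069 to 37761 in adult controls. Their part in the Fabp4 counts was not tested.

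In the carnitine shuttle Cpt1a and Cpt1c were higher at P6 and Cpt1b lower, the last not with total-count scaling. Cpt1a had 909, 940.4 and 902 normalized counts in the stabilized beta-catenin libraries, 2690.5, 2587 and 2823 at P6, and 1185, 1001 and 1082 in adult controls. Cpt1a, the form that dominates in liver and in the fetal heart, was 2.48-fold higher at P6 than in adult controls (log2 fold change 1.31, SE 0.12, adjusted p = 2.37e-05), with all P6 libraries above all adult ones. The stabilized beta-catenin libraries lay just below all adult controls, a difference that did not pass the test (log2 fold change -0.24, SE 0.12, adjusted p = 0.466). Cpt1b had 411, 423 and 391 normalized counts in the stabilized beta-catenin libraries, 319, 292 and 257 at P6, and 454, 458 and 447 in adult controls. Cpt1b, the muscle form, was lower at P6 (log2 fold change -0.65, SE 0.13, adjusted p = 0.00211), a call lost with total-count scaling (-0.22, adjusted p = 0.226), and did not pass the test with stabilized beta-catenin (log2 fold change -0.15, SE 0.12, adjusted p = 0.695). Cpt1c had 21.0, 36.8 and 42.1 normalized counts in the stabilized beta-catenin libraries, 89.1, 91.1 and 59.4 at P6, and 20.8, 35.4 and 20.9 in adult controls. Cpt1c, a form known mainly from brain, was higher at P6 at these low counts (log2 fold change 1.62, SE 0.28, adjusted p = 0.0011). The ratio of Cpt1a to Cpt1b within a library was 2.25 ± 0.0510 with stabilized beta-catenin, 9.42 ± 1.37 at P6 and 2.40 ± 0.212 in adult controls. This ratio and the level of Cpt1b are uncertain, because 93.0% of 50-base windows of Cpt1b are also found in a transcript annotated as another gene. Cpt2, which rebuilds acyl-CoA inside the mitochondrion, averaged 2339.9 ± 443 with stabilized beta-catenin, 1404 ± 44.0 at P6 and 3181 ± 246 in adult controls, and was lower at P6 than in adult controls (log2 fold change -1.18, SE 0.11, adjusted p = 3.88e-05). The adult groups did not overlap for Cpt2, yet it did not pass the test between them (log2 fold change -0.46, adjusted p = 0.279). Crat, the carnitine acetyltransferase gene, averaged 7117 ± 921, 5673 ± 284 and 8692 ± 962 in these groups and was lower at P6 than in adult controls (log2 fold change -0.61, adjusted p = 0.00355), a call lost with total-count scaling and with quantile normalization, where the difference was 0.10.

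The genes that set malonyl-CoA, the inhibitor of the shuttle's entry, were called lower at P6, but neither was with total-count scaling or quantile normalization. Acacb had 8625, 7713 and 8599 normalized counts in the stabilized beta-catenin libraries, 6314, 6034 and 5942 at P6, and 8123, 11469 and 10606 in adult controls. Acacb, the mitochondrial acetyl-CoA carboxylase gene that makes malonyl-CoA, was lower in all P6 libraries than in all adult controls (log2 fold change -0.71, SE 0.16, adjusted p = 0.00376), and was at -0.0022 under quantile normalization (adjusted p = 0.991). Mlycd had 1325, 1287 and 1112 normalized counts in the stabilized beta-catenin libraries, 1146, 1278 and 1084 at P6, and 2113, 1372 and 1564 in adult controls. Mlycd, whose product breaks malonyl-CoA down, was lower at P6 (log2 fold change -0.50, SE 0.17, adjusted p = 0.0267), a call lost without P6 library 1 or 3, with limma without trend, with total-count scaling, with quantile normalization and with a covariate for Y-linked reads. Its values were below adult control in all 3 stabilized beta-catenin libraries (log2 fold change -0.42, SE 0.18, adjusted p = 0.374). The ratio of Mlycd to Acacb was 0.150 ± 0.0190 with stabilized beta-catenin, 0.192 ± 0.0172 at P6 and 0.176 ± 0.0744 in adult controls.

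Of the 6 acyl-CoA dehydrogenase genes, a family that includes the enzymes starting each round of beta-oxidation, 5 were lower at P6 and 0 higher. Their median was -1.11 on the log2 scale. All 6 were higher with stabilized beta-catenin than at P6, except Acadl under total-count scaling (-0.066), quantile normalization (-0.35) and without P6 library 1, and Acadvl under quantile normalization (0.20, limma adjusted p = 0.0820). Acadm had 14356, 10608 and 10201 normalized counts in the stabilized beta-catenin libraries, 3603, 4112 and 3809 at P6, and 15489, 11874 and 13452 in adult controls. Acadm, the medium-chain enzyme gene, was 3.53-fold lower at P6 than in adult controls (log2 fold change -1.82, SE 0.14, adjusted p = 1.30e-05), or 2.27-fold under quantile normalization. Acadsb had 3542, 2476 and 2467 normalized counts in the stabilized beta-catenin libraries, 648, 695 and 573 at P6, and 3221, 2677 and 3163 in adult controls. Acadsb, whose enzyme acts on short branched chains, had the largest difference of the 6 (log2 fold change -2.24, SE 0.13, adjusted p = 2.91e-06). Acadl had 11609, 10186 and 10952 normalized counts in the stabilized beta-catenin libraries, 7877, 8803 and 9168 at P6, and 9552, 11734 and 12249 in adult controls. Acadl, the long-chain enzyme gene, lay lower in all P6 libraries than in all adult controls but missed the threshold (log2 fold change -0.37, SE 0.15, adjusted p = 0.0552). It was called lower with TMM factors, edgeR, DESeq2, all 3 groups in 1 fit and without adult control library 1, and was at 0.059 under total-count scaling and 0.35 under quantile normalization. Acadvl, for very long chains, averaged 11805 ± 1539 with stabilized beta-catenin, 6303 ± 535 at P6 and 15556 ± 3071 in adult controls (log2 fold change at P6 -1.29, adjusted p = 2.08e-04). Acads, for short chains, averaged 3086 ± 425, 1638 ± 102 and 3135 ± 526 (log2 fold change at P6 -0.92, adjusted p = 5.29e-04). Acad9, whose product also helps to build respiratory complex I, averaged 736 ± 10.4, 466 ± 34.9 and 713 ± 56.8 (log2 fold change at P6 -0.61, adjusted p = 0.00231), a call lost with total-count scaling (-0.18, adjusted p = 0.306). Between the adult groups the log2 fold changes of the 6 were -0.39 to 0.05, and all 6 overlapped.

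**Figure D2:**
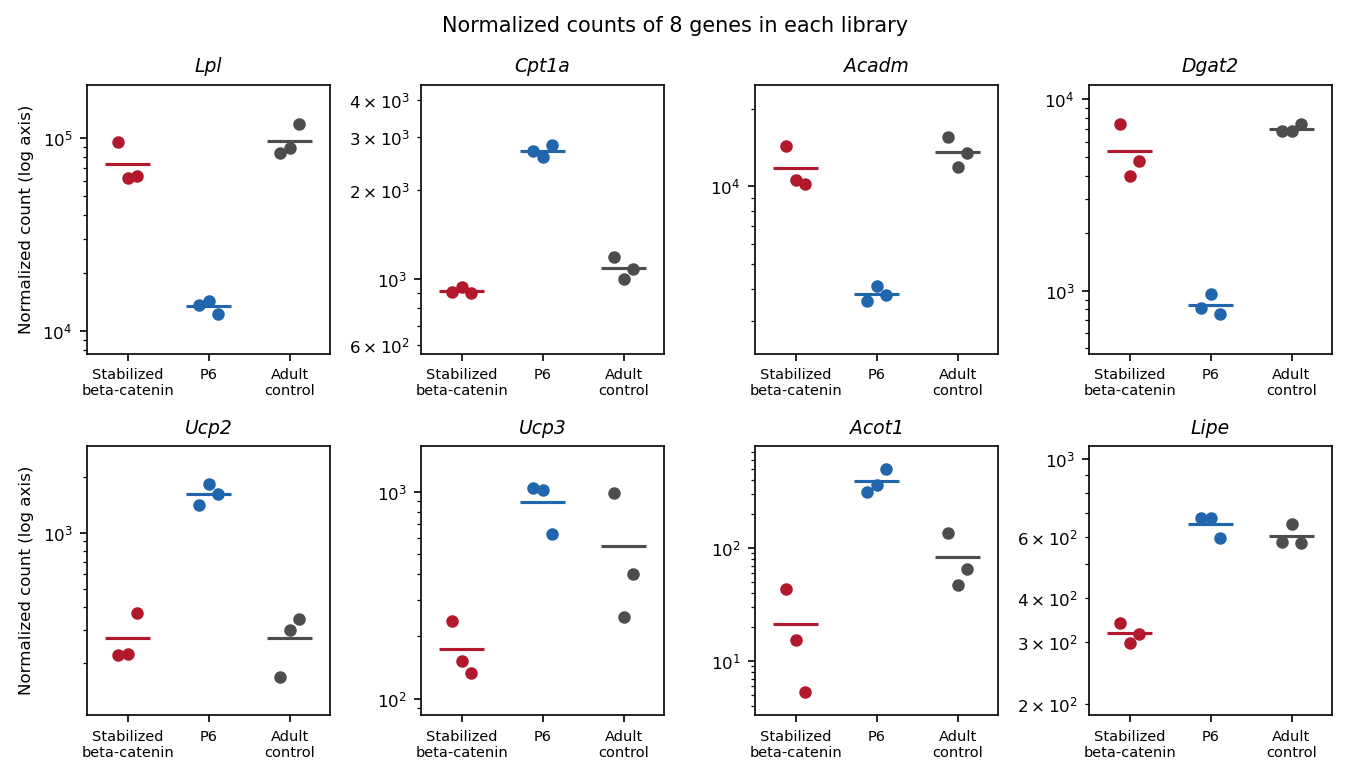
Normalized counts of 8 genes, chosen after their values were seen, in every library (points, log axis) with group means (bars), for stabilized beta-catenin, P6 and adult control. Lpl, Acadm and Dgat2 are lower and Cpt1a, Ucp2 and Acot1 higher in all P6 libraries than in all adult ones, and Lipe is lower in all stabilized beta-catenin libraries, at 298 to 339.8 against 575 to 652 in adult controls.

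The later steps of the spiral were lower at P6 in 6 of 6 genes (median log2 fold change -1.28), but Hadha and Acaa2 were not called with total-count scaling or quantile normalization. Echs1 had 5569, 4466 and 4258 normalized counts in the stabilized beta-catenin libraries, 1091, 1369 and 1285 at P6, and 6459, 4583 and 4982 in adult controls. Echs1, the short-chain enoyl-CoA hydratase gene, was 4.25-fold lower at P6 than in adult controls (log2 fold change -2.09, SE 0.16, adjusted p = 1.12e-05). Hadha had 18758, 14812 and 13678 normalized counts in the stabilized beta-catenin libraries, 11808, 12807 and 12229 at P6, and 23433, 18619.5 and 19754 in adult controls. Hadhb had 3261, 1950.2 and 1814 normalized counts in the stabilized beta-catenin libraries, 589, 694 and 639 at P6, and 3604, 2128 and 2457 in adult controls. The products of Hadha and Hadhb are the alpha and beta subunits of the mitochondrial trifunctional protein, and the genes are read in opposite directions from RefSeq starts 273 bases apart. Both were lower at P6, Hadha by less (log2 fold change -0.74, SE 0.15, adjusted p = 0.00242) than Hadhb (log2 fold change -2.06, SE 0.19, adjusted p = 3.01e-05). Their ratio within a library was 6.96 ± 1.05 with stabilized beta-catenin, 19.2 ± 0.789 at P6 and 7.76 ± 1.15 in adult controls. It is uncertain, because Hadhb shares sequence with a pseudogene. The Hadha difference at P6 was 0.024 under quantile normalization, and its call for stabilized beta-catenin against P6 (log2 fold change 0.35, adjusted p = 0.0329) was lost in 11 of 19 alternatives and turned round under total-count scaling (-0.061) and quantile normalization (-0.45). The alternatives that lost it include those without stabilized beta-catenin library 1 and without each P6 library. Acaa2 had 10443, 6049.9 and 6695 normalized counts in the stabilized beta-catenin libraries, 6741, 7508 and 7519 at P6, and 16754, 10792 and 11102 in adult controls. Acaa2, a 3-ketoacyl-CoA thiolase gene, was lower at P6 (log2 fold change -0.80, SE 0.19, adjusted p = 0.00511; -0.075 and adjusted p = 0.722 under quantile normalization) and was lower in each stabilized beta-catenin library than in any adult control without passing the test (log2 fold change -0.75, SE 0.26, adjusted p = 0.262). Hadh, the short-chain 3-hydroxyacyl-CoA dehydrogenase gene, averaged 6955 ± 1647, 3458 ± 208 and 8983 ± 1694 with stabilized beta-catenin, at P6 and in adult controls (log2 fold change at P6 -1.36, adjusted p = 1.11e-04). Decr1, needed for unsaturated acids, averaged 4338 ± 1314, 2459 ± 134 and 5711 ± 1333 (log2 fold change at P6 -1.19, adjusted p = 3.74e-04).

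The electron transfer genes were close together in the size of their difference at P6 with the deposited normalization. Under quantile normalization they were less so, at log2 fold changes of -1.19 for Etfa, -0.72 for Etfb and -0.66 for Etfdh. Etfa had 4073, 2591 and 3144 normalized counts in the stabilized beta-catenin libraries, 1183, 1319.6 and 1280.2 at P6, and 3089, 3519 and 3910.0 in adult controls. Etfb had 6633, 4816 and 5199 normalized counts in the stabilized beta-catenin libraries, 2934, 3168 and 3205 at P6, and 9213, 6723 and 6964 in adult controls. Etfdh had 11295, 8529.8 and 7555 normalized counts in the stabilized beta-catenin libraries, 4019, 4706 and 4063 at P6, and 12793, 8702 and 10776 in adult controls. Etfa and Etfb encode the subunits of electron transfer flavoprotein, and Etfdh the oxidoreductase that passes its electrons to ubiquinone. All 3 were lower at P6 than in adult controls, at log2 fold changes of -1.47 (adjusted p = 2.12e-05), -1.28 (adjusted p = 1.11e-04) and -1.32 (adjusted p = 1.66e-04). With stabilized beta-catenin against adult control none of the 3 passed limma's test. Etfb lay lower in all libraries there (log2 fold change -0.46, SE 0.19, adjusted p = 0.349). An unadjusted p under 0.05 was found for 1 of the 3, beside 1666 of all 12971 genes tested.

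The thioesterases, which split acyl-CoA into free acid and CoA, went in opposite directions. Acot1 had 43.1, 15.4 and 5.33 normalized counts in the stabilized beta-catenin libraries, 315, 359.9 and 499 at P6, and 135, 47.5 and 64.8 in adult controls. Acot1, the cytosolic form, was 5.08-fold higher at P6 than in adult controls (log2 fold change 2.35, SE 0.35, adjusted p = 4.59e-04), and it was lower with stabilized beta-catenin than at P6 (log2 fold change -4.53, SE 0.54, adjusted p = 3.45e-05). Its stabilized beta-catenin libraries, 5.33 to 43.1, were all below the adult controls, 47.5 to 135, and the difference did not pass limma's test (log2 fold change -2.19, SE 0.67, adjusted p = 0.198) or edgeR's (adjusted p = 0.218) but passed DESeq2's (adjusted p = 0.0302). Without stabilized beta-catenin library 1 or 3 the Acot1 log2 fold change was -2.89 or -1.49 against adult control, and -5.24 or -3.84 against P6. Acot2 had 899, 619.5 and 544 normalized counts in the stabilized beta-catenin libraries, 1523, 1626 and 1714 at P6, and 1499, 859 and 1134 in adult controls. Acot2, the mitochondrial form, was higher at P6 by a margin (log2 fold change 0.51, SE 0.19, adjusted p = 0.0408) that was lost in 10 of 19 alternatives, among them those without P6 library 1, 2 or 3 and without adult control library 2 or 3 (adjusted p up to 0.124). Acot13 had 3412, 3009.6 and 2437 normalized counts in the stabilized beta-catenin libraries, 1016, 1120.1 and 1031 at P6, and 3742, 2445 and 3293 in adult controls. Acot13, a mitochondrial form of another protein family, was lower at P6 (log2 fold change -1.56, SE 0.16, adjusted p = 6.09e-05).

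Of the uncoupling protein genes, Ucp2 was higher at P6 and Ucp3 was not called. Ucp2 had 222, 225 and 373 normalized counts in the stabilized beta-catenin libraries, 1416, 1825 and 1613 at P6, and 169, 302 and 346 in adult controls. The P6 libraries lay far above the adult ones (log2 fold change 2.62, SE 0.25, adjusted p = 3.46e-05 against adult control), and the adult groups overlapped (log2 fold change 0.02, SE 0.30, adjusted p = 0.994). Ucp2 is found in many cell types, immune cells among them, and the part of any cell type in the Ucp2 counts was not tested. Of 12 macrophage markers 11 were lower and 1 higher at P6, with summed normalized counts of 4248 to 5124 under stabilized beta-catenin, 1326 to 1510.4 at P6 and 4222 to 6748 in adult controls. Ucp3 had 239, 151 and 133 normalized counts in the stabilized beta-catenin libraries, 1043, 1023 and 627 at P6, and 989, 249.7 and 399 in adult controls. Ucp3, the form of muscle, was spread widely among adult controls, with library 1 far above the others, and P6 overlapped with them (log2 fold change 0.92, SE 0.44, adjusted p = 0.0957). Ucp3 was called higher at P6 without adult control library 1 (log2 fold change 1.47, limma adjusted p = 9.88e-05), with total-count scaling (1.35, adjusted p = 0.0260) and with the replicate block (adjusted p = 0.0376). Against adult control the stabilized beta-catenin libraries were all lower, which limma did not call (log2 fold change -1.45, SE 0.46, adjusted p = 0.214), nor edgeR (adjusted p = 0.159), while DESeq2 did (adjusted p = 0.00481). Against P6 Ucp3 was lower with stabilized beta-catenin (log2 fold change -2.37, SE 0.24, adjusted p = 1.03e-05).

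Genes of triglyceride stores changed at P6 in synthesis and in breakdown. Dgat2 had 7444, 3969 and 4763 normalized counts in the stabilized beta-catenin libraries, 815, 959.7 and 753 at P6, and 6808, 6799 and 7466 in adult controls. Dgat2, which encodes an enzyme of the last step of triglyceride synthesis, was 8.36-fold lower at P6 than in adult controls (log2 fold change -3.06, SE 0.13, adjusted p = 1.13e-06). Dgat1 had 257, 244 and 231 normalized counts in the stabilized beta-catenin libraries, 292, 263 and 329.7 at P6, and 276, 193 and 197 in adult controls. Dgat1, for the unrelated enzyme of the same step, overlapped between P6 and adult controls (log2 fold change 0.42, SE 0.18, adjusted p = 0.0622). It was called higher at P6 without adult control library 1 (0.59), with total-count scaling (0.85) and with all 3 groups in 1 fit. The ratio of Dgat2 to Dgat1 was 22.0 ± 6.48 with stabilized beta-catenin, 2.91 ± 0.690 at P6 and 32.6 ± 6.96 in adult controls. Pnpla2 had 2660.1, 2620.2 and 2883 normalized counts in the stabilized beta-catenin libraries, 940.2, 1059 and 979 at P6, and 2795, 3523 and 4004 in adult controls. Pnpla2 encodes ATGL, the lipase that takes the first fatty acid from triglyceride, and was 3.43-fold lower at P6 than in adult controls (log2 fold change -1.78, SE 0.15, adjusted p = 1.80e-05). Plin5 had 1377, 1149 and 874 normalized counts in the stabilized beta-catenin libraries, 863, 851 and 731 at P6, and 2298, 1379 and 1649 in adult controls. Plin5, a droplet coat protein gene of tissues that burn fat, was lower at P6 (log2 fold change -1.09, SE 0.19, adjusted p = 9.30e-04), and the adult groups did not overlap while missing the threshold (log2 fold change -0.64, SE 0.23, adjusted p = 0.283).

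Lipe, which encodes the lipase of diacylglycerol, was the 1 gene of the 37 called with stabilized beta-catenin against adult control. Lipe had 339.8, 298 and 316 normalized counts in the stabilized beta-catenin libraries, 679.8, 676 and 594 at P6, and 579, 652 and 575 in adult controls. The stabilized beta-catenin libraries stood apart below all others, and P6 overlapped with adult control (log2 fold change 0.11, SE 0.12, adjusted p = 0.447), although it was called higher there with total-count scaling (0.54). Lipe was 1.89-fold lower with stabilized beta-catenin than in adult controls (log2 fold change -0.92, SE 0.13, adjusted p = 0.0123, 95% interval -1.21 to -0.63), and lower than at P6 (log2 fold change -1.03, SE 0.10, adjusted p = 8.75e-06). The call against adult control was lost without stabilized beta-catenin library 2 (adjusted p = 0.0867) or 3 (0.102), without adult control library 3 (0.0559) and with a covariate for Y-linked reads (0.112), while the log2 fold change lay between -1.01 and -0.86 in all 19 alternatives. Fat cells hold much Lipe. Of 12 adipocyte markers 1 was tested between the adult groups and 0 were called, and 9 had under 10 normalized counts in all stabilized beta-catenin libraries and 11 in all adult controls. Most of their summed counts were of Cidea, the 1 tested, at 148 to 242 with stabilized beta-catenin, 192 to 223 at P6 and 221 to 361 in adult controls. The sum of the other 11 was 6.01 to 64.2 with stabilized beta-catenin, 21.9 to 38.6 at P6 and 4.17 to 12.2 in adult controls, where Cidea was left out after its values were seen. Stabilized beta-catenin library 2 was the highest, with 28.2 normalized counts of Cfd and 12.0 of Adipoq, fat cell genes that had at most 5.04 and 3.60 in any other library. Adipoq and Plin1, which define fat cells, were at 0 in all P6 libraries. Most of the P6 sum of the 11 was of Tmem26, the 1 adipocyte marker called higher at P6 against adult control. Tmem26 had 17.8, 30.4 and 35.6 normalized counts at P6, and 0.833, 1.01 and 1.44 in adult controls. The part of fat cells in the Lipe counts was not tested.

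**Figure D3:**
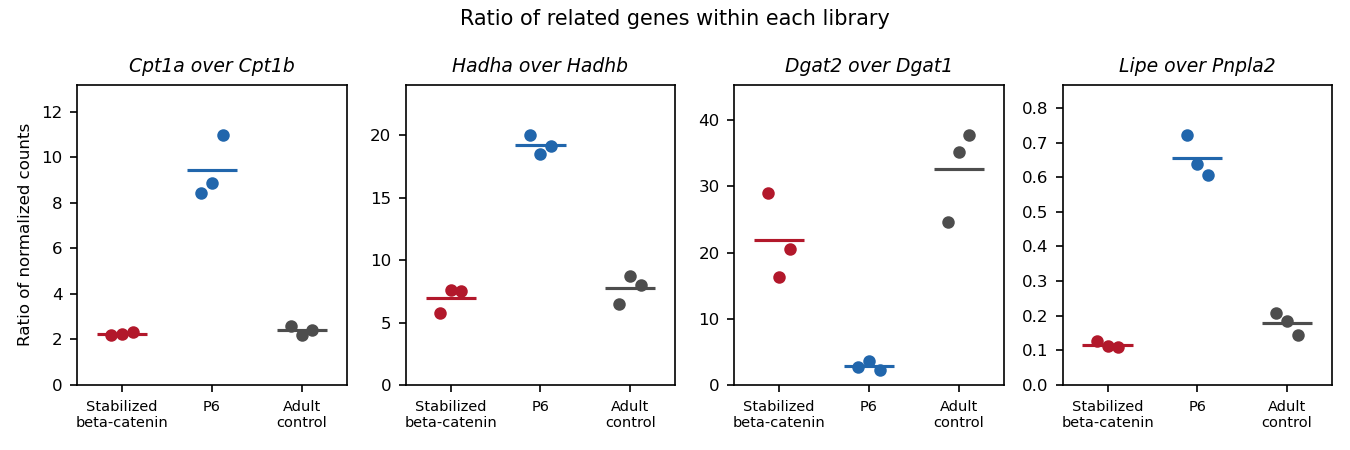
Ratio of the normalized counts of 4 pairs of related genes, chosen after their values were seen, within each library (points) with group means (bars), for stabilized beta-catenin, P6 and adult control, on linear axes from 0. Cpt1a over Cpt1b, Hadha over Hadhb and Lipe over Pnpla2 are higher at P6, and Dgat2 over Dgat1 is lower there, at 2.91 on average against 32.6 in adult controls. Cpt1b, Hadhb and Lipe share sequence with other annotated genes, so the ratios that hold them are uncertain.

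A ratio within a library does not depend on scaling each library by 1 factor, but quantile normalization can change it. Ratios of 7 pairs, chosen after the values of the genes were seen, were compared in 3 ways each, which makes 21 exact two-sided permutation tests on log2 ratios. With 3 libraries against 3 the smallest p possible is 0.1, which 14 of the 21 reached, 6 of 7 for P6 against adult control, and adjusted over the 21 it is 0.15. The threshold cannot be passed in this design. The ratio of Lipe to Pnpla2, the lipases of successive steps, was 0.117 ± 0.00954 with stabilized beta-catenin, 0.656 ± 0.0600 at P6 and 0.179 ± 0.0323 in adult controls. The ratio of Ucp2 to Ucp3 was 1.74 ± 0.961, 1.90 ± 0.617 and 0.749 ± 0.530 in these groups, and that of Acot1 to Acot2 was 0.0275 ± 0.0192, 0.240 ± 0.0450 and 0.0675 ± 0.0196.

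Per kilobase of transcript the genes covered a wide range. Lpl had the highest level of the 37 in both adult groups, at 17839 ± 4521 normalized counts per kilobase with stabilized beta-catenin and 23482 ± 4574 in adult controls, against 3251 ± 256 at P6, where it was the 7th. Fabp3 was the highest at P6, at 9271 ± 419 per kilobase, and the 2nd in both adult groups. Cpt1a per kilobase was at 212 ± 4.75 with stabilized beta-catenin, 625 ± 27.4 at P6 and 252 ± 21.4 in adult controls, above Cpt1b at 141 ± 5.52, 99.97 ± 10.8 and 157 ± 1.89. Levels of this kind rest on the reads that could be assigned. Of 50-base windows of the principal GENCODE transcript, 93.0% for Cpt1b are also found in a readthrough transcript annotated as another gene, 67.3% for Etfb in an overlapping gene, and 62.4% for Hadhb in other genes, nearly all in a pseudogene. Shares over 10% were also found for Fabp3 (37.3%), Acot1 (33.6%) and Acot2 (27.7%), which share sequence with each other, Acadvl (24.0%), Lipe (16.2%, an antisense gene) and Acad9 (13.5%). The antisense gene at Lipe had 30.2, 21.7 and 28.2 normalized counts at P6 and no more than 9.41 in any adult library. The table has a row for the readthrough of Chkb and Cpt1b, and it was 0 in all 9 libraries. How such reads were counted is not given in the sources used here, so the levels of these 9 genes and the ratios that hold them are uncertain. Among the other 28 genes, 3 were higher and 21 lower at P6, 0 higher and 0 lower with stabilized beta-catenin against adult control, and 20 higher and 4 lower with stabilized beta-catenin against P6. The cutoff and the transcript were chosen after the values were seen, and with the longest transcript of any type the Hadhb share was 4.47% and 7 genes passed 10%.

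Other genes of fatty acid metabolism and related pathways were counted from lists. The first was a mixed list of acyl-CoA and carnitine genes, not all of them for fatty acids or in mitochondria. Of its 20 genes tested, 18 were lower and 0 higher at P6, at a median of -1.41 on the log2 scale. They were led by the acyl-CoA dehydrogenase genes Acad12 (-3.68) and Acad11 (-3.07) and by Acss1 (-3.04), which activates acetate in mitochondria. Of 20 peroxisomal genes, 15 were lower and 0 higher, with a median of -0.89, among them Phyh (-2.18), needed for branched chains, and Ech1 (-1.92), an isomerase. Of 19 other droplet and triglyceride genes, 10 were lower and 2 higher, with Fitm2 at -2.73, Lpin1 at -2.37 and Plin3 at -1.99, which act in droplet formation, in diacylglycerol synthesis and as a droplet coat. Of 19 other uptake genes, 6 were higher and 5 lower. Acsl6, an acyl-CoA synthetase gene, was at -4.82, Fabp7, a binding protein gene known from brain, at 2.73 on few counts, and Angptl4, which encodes an inhibitor of lipoprotein lipase, at 3.88. Angptl4 had 39.1, 53.9 and 23.7 normalized counts in the stabilized beta-catenin libraries, 758, 974 and 701 at P6, and 60.8, 41.5 and 60.5 in adult controls. It thus stood opposite to Lpl at P6.

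Of 10 tested genes known to respond to fasting or PPAR, 2 were higher and 2 lower at P6 (median log2 fold change -0.01). Angptl4 was among the higher genes, and Slc25a34, a mitochondrial carrier gene, was at -1.76. Of 23 regulators of these pathways, 12 were lower and 3 higher (median -0.44). Klf15, a transcription factor of fasting and of muscle lipid use, was at -3.24, the retinoid receptor gene Rxrg at -2.83, and Nr1h3, the liver X receptor alpha gene, at -2.78. Ppara, the nuclear receptor gene of fatty acid oxidation, was picked out after its value was seen (-1.98). With stabilized beta-catenin against adult control, none of the genes of these 6 lists passed limma's test. From 1 to 6 per list had an unadjusted p under 0.05, beside 1666 of all 12971 genes tested. With stabilized beta-catenin against P6, 18 of 20 genes of the mixed acyl-CoA and carnitine list, 15 of 19 peroxisomal genes and 14 of 23 regulators were higher, and 0, 0 and 2 lower.

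**Figure D4:**
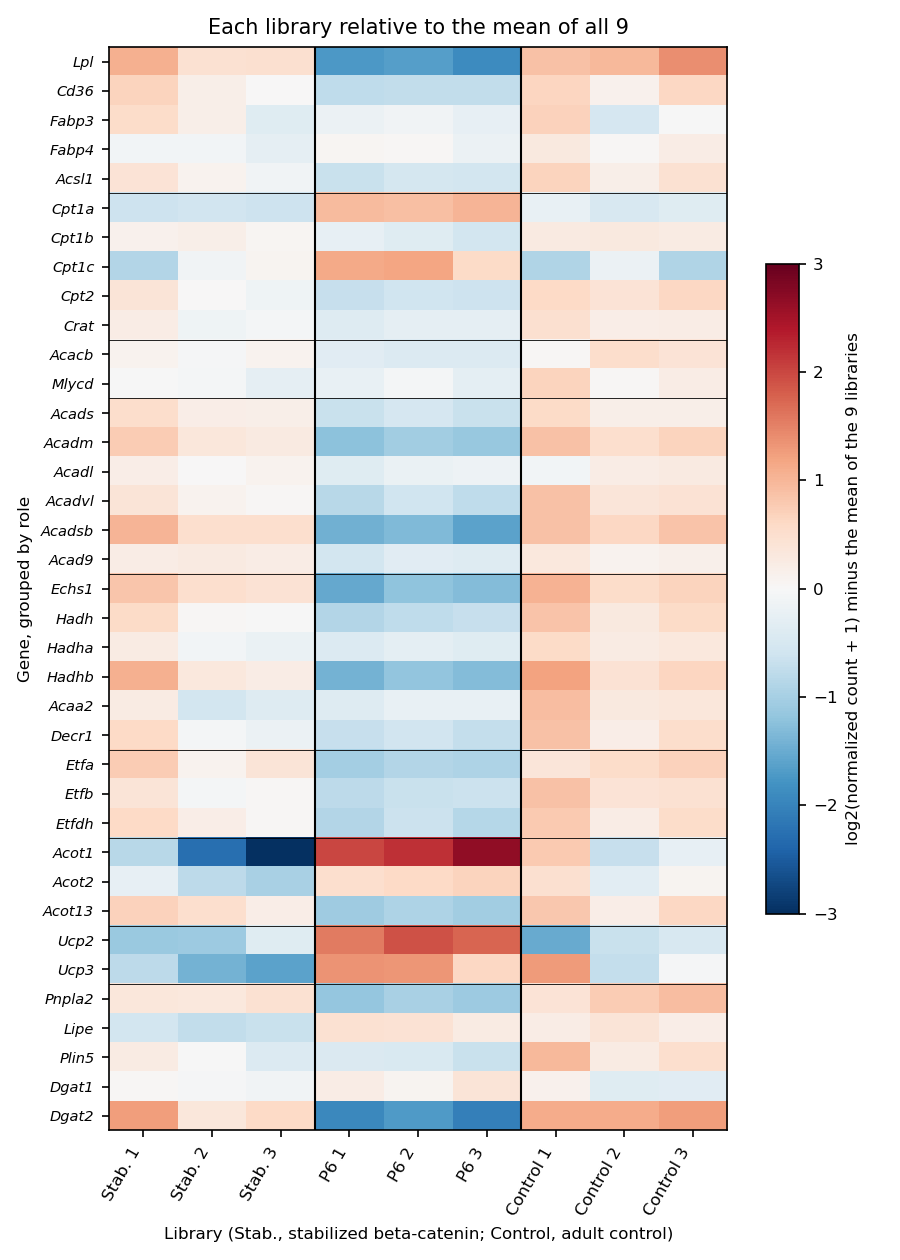
Log2(normalized count + 1) of the 37 genes in each of the 9 libraries, minus the gene's mean over the 9 (color, from -3 in blue to 3 in red), with genes grouped by role. The P6 columns are below the mean in most rows and above it for Cpt1a, Cpt1c, Acot1, Acot2, Ucp2 and Ucp3, among others. The first library of each adult group is the darkest red in many rows.

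Within the adult groups the genes tended to be high in the same library. Stabilized beta-catenin library 1 had the highest value of its group in 30 of the 37 genes and adult control library 1 in 26, where these libraries were highest for 39.0% and 43.2% of all 13555 genes. At P6, library 2 was highest in 21 of the 37 and in 33.1% of all genes, and lowest in 2 of the 37. With each library left out in turn, the median log2 fold change of the 37 stayed between -0.99 and -0.86 for P6 against adult control, and between -0.39 and -0.23 when stabilized beta-catenin was set against adult control. At P6 27 of the 37 lay below all adult controls in every library and 5 above, where 34.7% of all genes tested lay below and 35.6% above. With stabilized beta-catenin 11 of the 37 lay below all adult controls and 0 above, where 9.19% and 9.84% of all genes tested did. Against P6 the stabilized beta-catenin libraries lay above in 25 of the 37 and below in 8, where 38.7% of all genes tested lay above and 38.3% below.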

How the data were processed

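Per the submitters' processing notes, Bowtie2 2.0 and DESeq2 were used with genome build mm9, and per the file headers htseq-count assigned reads to genes. Annotation, strand setting and read length are not given in the sources used here. The authors deposited a signal for each of 24391 genes in 9 libraries: normalized counts, in which the reads of a library are divided by 1 factor. For P6 the deposited files also hold the count with no normalization. Dividing by each library's smallest step gave back whole reads (100% of values within 0.001 of a whole number) and equalled the deposited P6 counts in the 24364 genes that matched by name. 1 unnamed column of numbers in the table, and other sheets of the workbook, were not used.

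A gene was tested where 3 or more of the 6 libraries compared had 10 or more normalized counts. Values of log2(normalized count + 1) went into limma 3.58.1 (R 4.3.3; two-sided, moderated with an intensity trend), with 2 groups per fit and Benjamini-Hochberg adjustment over all genes tested (threshold 0.05). Fold changes understate those of low genes because of the added 1. An exact permutation test of 3 against 3 libraries gives 0.1 at best, so p-values depend on the variance that limma shares among genes. Replicates differed by a chi-square of 5.32 to 152 per degree of freedom, more than repeated sampling of 1 library gives.

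The alternatives were: a pseudocount of 0.5 or 5; a filter of 50, or none; TMM factors, quantile normalization or scaling by total counts; limma with no trend; DESeq2 1.42.0 or edgeR 4.0.16 on whole reads; 1 fit of all groups; a replicate block; each library left out; and, added after the data were seen, a covariate for Y-linked reads. The procedure was tested on simulated data. All 37 genes are named, and from each other list up to 3 called genes with the largest change, or up to 2 for marker lists; some genes that this rule names are not reported here. The members and lists were chosen with earlier results of these data known. Transcript lengths and shared windows come from GENCODE M21 and promoters from RefSeq, both on another build than mm9, so no coordinate of the files was used.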

Additional observations from a re-analysis of the deposited data

How the results depend on the processing

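The counts of the 37 genes called at P6 against adult control (5 higher, 26 lower) were 4 to 7 higher and 25 to 27 lower with each library left out, and 4 to 8 and 19 to 27 in 13 other alternatives. Total-count scaling, which moves the median over all genes to 0.44, gave 8 higher and 19 lower, with the median of the 37 at -0.50. Over all 13398 genes tested it gave 6388 higher and 2316 lower. Quantile normalization gave 6 and 20. With stabilized beta-catenin against adult control, 0 genes were higher in every alternative, and 3 were lower with DESeq2 and with the replicate block (Lipe, Acot1 and Ucp3 in both). Over all 12971 genes tested, DESeq2 called 201 lower and the replicate block 66. The number of the 37 called lower was 0 to 1 with each library left out and 0 with the Y-linked covariate. For stabilized beta-catenin against P6 (25 higher, 7 lower), it was 22 to 26 higher and 7 to 8 lower with each library left out. Total-count scaling, which moves the median over all genes to -0.40, gave 18 and 10, and quantile normalization gave 17 and 14. Over all 13367 genes tested quantile normalization gave 5008 higher and 4667 lower, with a median of 0.04 beside 0.20 for the 37.

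A reversal is counted where the sign changes and the gene is called in either fit, and 13 were found, none of them with a library left out. Under quantile normalization, for P6 against adult control, Fabp4 was at 0.41, Crat at 0.10 and Hadha at 0.024, and for stabilized beta-catenin against P6, Fabp3 was at -0.40, Crat at -0.37, Acacb at -0.26, Acadl at -0.35, Hadha at -0.45 and Acaa2 at -0.61. Under total-count scaling, for stabilized beta-catenin against P6, Crat was at -0.087, Mlycd at -0.32, Acadl at -0.066 and Hadha at -0.061. The cause was not tested, and the directions of these genes depend on the scaling. P6 libraries had fewer reads than any adult library.

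No pairing of libraries by the replicate numbers of the titles was seen, though 3 libraries per group cannot exclude one. The deviations of same-numbered libraries correlated at -0.08, -0.06 and 0.03 for P6 against adult control, at 0.20, -0.12 and 0.10 between the adult groups, and at -0.10, 0.12 and 0.05 for stabilized beta-catenin against P6. With the replicate block the counts were 6 higher and 26 lower, 0 and 3, and 24 and 7, in that order of comparisons. Not every library correlated best with its own number.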

Other observations

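Markers of 2 other tissues were read beside the fatty acid genes. Of 9 skeletal muscle genes 3 were tested between the adult groups and 0 passed limma's test. All 3 had an unadjusted p under 0.05, beside 1666 of all 12971 genes tested. The summed normalized counts of the list were 6381 to 16715 with stabilized beta-catenin, 643 to 964 at P6 and 1631 to 4705 in adult controls. Most of each sum was of Acta1, at 5922 to 16293, 566 to 898 and 1896 to 4523 in these groups. Between the adult groups 2 of the 3 tested were positive with stabilized beta-catenin. The other, Tnni2, was negative, at 1.71 to 8.02 against 11.1 to 16.7 in adult controls. Of the list, 7 genes had under 10 normalized counts in all stabilized beta-catenin libraries and 5 in all adult controls. Of 8 liver genes 1 passed the filter there and was higher: Cyp2e1, a cytochrome P450 gene known from liver, had 48.1, 10.3 and 69.9 normalized counts with stabilized beta-catenin, 0, 0 and 0 at P6, and 0, 3.03 and 1.44 in adult controls. The liver markers Alb, Serpina1a and Fgb were at 0 in all 9 libraries. Of 16 clock genes 3 were higher and 6 lower at P6 against adult control, and 0 passed limma's test with stabilized beta-catenin against adult control, with 1 at an unadjusted p under 0.05. Their summed counts were 10308 to 13962 with stabilized beta-catenin, 8157 to 8701 at P6 and 13577 to 15421 in adult controls, and the hour of collection is not given in the labels.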
